A study of Mus musculus with 15 samples.

Results

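The genes described here are the Wnt ligands, their Frizzled (Fzd) receptors, the secreted inhibitors of the Sfrp and Dkk families and Wif1, and the intracellular members Axin2, Lef1 and Nkd1. They were taken by gene symbol from the probe sets that name exactly 1 gene, and 41 of 19938 measured genes were members: 19 Wnt ligands, 10 Fzd receptors, 4 Sfrp genes, 4 Dkk genes, Wif1, Axin2, Lef1 and Nkd1. Tcf7 also falls under the rule, but no probe set named it alone and it was not analysed here. Wnt4 had 2 probe sets and each other member had 1. For each gene the probe set of highest mean over all arrays stood for it.

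RNA came from cultured mammary epithelial cells of female mice aged 8 weeks and was measured on 15 Affymetrix Mouse Gene arrays. The 5 groups of 3 samples were WT (no change), p53- (p53 deleted by Cre), p53- Rb- (Rb deleted as well), p53- Myc+ (p53 deleted and MYC overexpressed from a retrovirus) and p53- Rb- Myc+ (all of these together). Every group other than WT was thus labelled as lacking p53. Cre was delivered to the cultures with an adenovirus, and neither a control virus in the other cultures nor separate animals or cultures behind the replicates are stated in the labels, so a p-value here reflects only how these samples spread, which may be technical.

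Wnt proteins are secreted lipid-modified ligands that bind Fzd receptors together with Lrp5 or Lrp6 co-receptors. In the canonical branch this stops the destruction of beta-catenin, which then acts with Lef1 and the Tcf factors on target genes, while other Wnt proteins act through Fzd receptors on cell polarity and movement. Sfrp proteins and Wif1 bind the ligands outside the cell, Dkk1, Dkk2 and Dkk4 block the co-receptors, and Axin2 and Nkd1 are feedback inhibitors whose transcripts are widely used as readouts of the canonical branch. In the mammary gland Wnt4 is known as a ligand induced by progesterone that promotes side branching, Wnt10b and Lef1 mark the early mammary line, and Wnt1 was found through insertions of a mammary tumour virus.

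Values are the deposited intensities on a linear scale. The median probe set of an array lay between 41.28 and 54.9, and 10% of genes lay under 8.83 to 18.55 depending on the array; no detection call came with the values, so a low value is given as low and not as absent. The 3 p53- arrays stood apart at the low end: 10% of genes lay under 14.88 to 18.55 there and under 8.83 to 13.99 in the 12 other arrays, and 7.86% to 11.3% of genes lay under 16 against 12.2% to 19.3%. Every comparison with p53- arrays rests on them, and the part of this in the results was not tested. Intensities of different probe sets are not compared with each other. The defining epithelial transcripts Krt8, Krt18, Krt5, Krt14, Epcam and Cdh1 were all present without the Myc+ label (lowest array value 1370.661, for Epcam) but lay between 0.389 (Krt5) and 86.048 (Krt8) in the 6 arrays labelled Myc+, so the labelled cell type was not borne out there. The deleted gene Rb1 ranged from 52.67 to 64.24 in p53- Rb- against 146.9 to 180.6 in p53- and 86.49 to 103.8 in WT arrays. It also ranged from 26.82 to 48.04 in the arrays labelled p53- Myc+, and from 17.92 to 19.98 in those labelled p53- Rb- Myc+. The mouse Myc probe set ranged from 778.7 to 1046 without and from 87.14 to 162 with the Myc+ label, and it may not read the transgene. Directions below rest on the labels.

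Differences are log2 fold changes of intensity + 16, with their SE, from limma's moderated test over all 19938 genes, and a gene rose or fell where its Benjamini-Hochberg adjusted p was under 0.05. The constant 16 makes changes of low genes look smaller, and it sets the size of a change where a group lies near or under it. With the Myc+ label in p53- cells, adding 1 or 64 in its place gave -4.94 and -2.62 for Wnt7b, -4.85 and -1.73 for Wnt5b, -3.58 and -1.35 for Wnt5a, -3.40 and -1.18 for Wnt7a, -3.52 and -1.30 for Wnt10a and -3.49 and -1.51 for Fzd6, all of which passed. For these genes the direction and the call are reported, and the size holds for this constant alone. The same goes for other members with values near or under 16. Over the alternative settings given at the end, their change with the Myc+ label in p53- cells ran from -2.877 to -0.835 for Dkk3. It ran from -1.657 to -0.539 for Dkk2 and from -1.411 to -0.389 for Axin2. Sfrp2 with p53 loss gave -1.746 and -0.8 with 1 and 64 added. Over the 5 comparisons of 2 groups, 20 of the 41 members passed at least 1 time and 21 never did. Of all genes 60.1% passed at least 1 time, so the members' share was not above the background. The largest movements set the arrays labelled Myc+ apart: Wnt5a, Wnt5b, Wnt7a, Wnt7b and Fzd6 lay near the bottom of the scale there and Sfrp2 lay high. The heat map of all members shows these genes as the strongest contrasts across the 15 arrays.

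**Figure D1:**
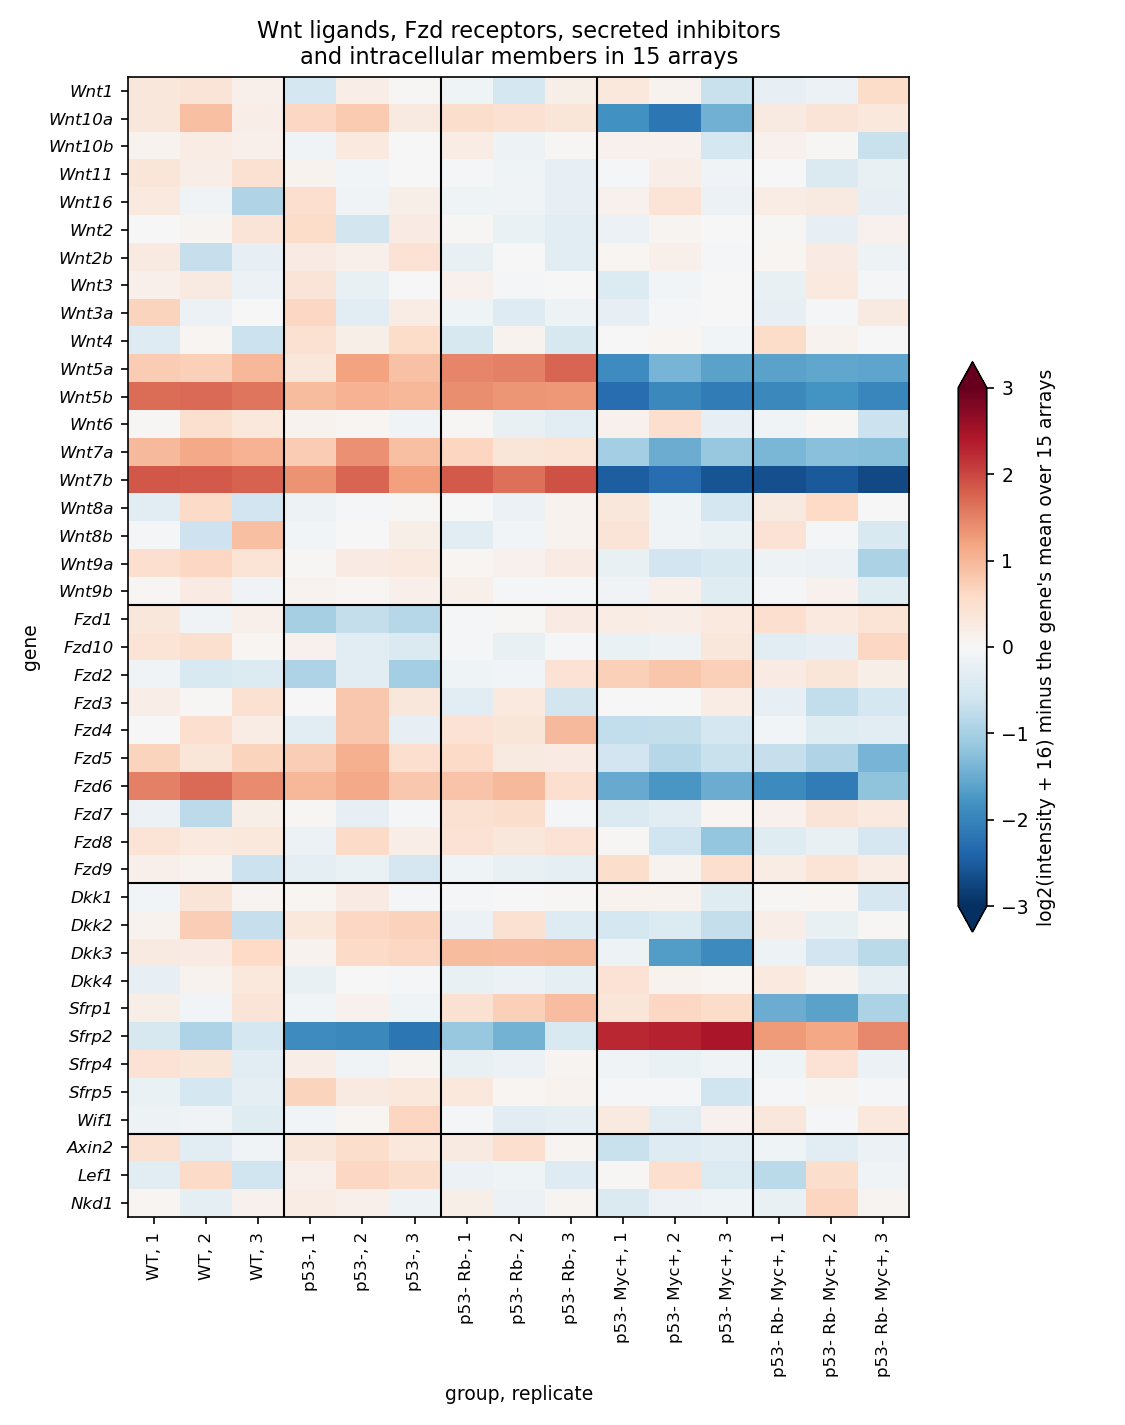
Each row is 1 of the 41 members and each column 1 of the 15 arrays (group and replicate); colour is log2(intensity + 16) minus the gene's mean over all arrays, red above and blue below it, and black lines separate groups and roles. Wnt5a, Wnt5b, Wnt7a, Wnt7b and Fzd6 are blue in all 6 arrays labelled Myc+, Sfrp2 is red there, and Wnt10a is deep blue only in the p53- Myc+ arrays.

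Wnt7b, a ligand of the ductal epithelium, had intensities of 548, 534 and 509 (WT), 377, 505 and 345 (p53-), 535, 468 and 562 (p53- Rb-), 11.7, 15.8 and 9.65 (p53- Myc+) and 8.64, 10.9 and 7.57 (p53- Rb- Myc+). All 6 arrays labelled Myc+ lay below all 9 others. Wnt7b fell with the Myc+ label with a log2 change of -3.89 ± 0.16 (adjusted p = 1.24e-14) in cells without the Rb- label and with a log2 change of -4.42 ± 0.16 (adjusted p = 1.53e-15) in cells with it. Neither p53 loss (-0.38 ± 0.16, adjusted p = 0.0841) nor the Rb- label in p53- cells (0.35 ± 0.16, adjusted p = 0.132) gave a call.

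Wnt5b, a ligand mostly linked to the branch that does not use beta-catenin, had intensities of 274, 276 and 258 (WT), 159, 171 and 165 (p53-), 222, 210 and 207 (p53- Rb-), 2.53, 7.71 and 5.23 (p53- Myc+) and 7.76, 9.93 and 7.18 (p53- Rb- Myc+). Without the Myc+ label its 3 groups did not overlap, with WT highest and p53- lowest. Wnt5b fell with p53 loss (-0.65 ± 0.15, adjusted p = 0.00214, and adjusted p = 0.0562 with 1 added before the logarithm) and fell further with the Myc+ label (-3.10 ± 0.15, adjusted p = 8.42e-14, and -3.24 ± 0.15, adjusted p = 4.29e-14, in p53- and p53- Rb- cells).

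Its relative Wnt5a, known to restrain duct growth in the mammary gland, measured 120, 115 and 142 (WT), 85.7, 168 and 130 (p53-), 204, 212 and 252 (p53- Rb-), 5.56, 14.3 and 10.2 (p53- Myc+) and 10.4, 11.2 and 10.6 (p53- Rb- Myc+). WT and p53- arrays overlapped, and the p53- Rb- arrays lay above both. Wnt5a rose with the Rb- label in p53- cells (0.77 ± 0.19, adjusted p = 0.00667), a call that ended without p53- replicate 1, the lowest of its group (0.54, adjusted p = 0.0652), and with 1 added before the logarithm (adjusted p = 0.0622). It fell with the Myc+ label with a log2 change of -2.44 ± 0.19 (adjusted p = 5.5e-10) in p53- and with a log2 change of -3.15 ± 0.19 (adjusted p = 6.69e-12) in p53- Rb- cells.

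Wnt7a, which in other tissues patterns the reproductive tract and limb, measured 97.4, 111 and 103 (WT), 82.1, 134 and 93.5 (p53-), 74.7, 59 and 61.2 (p53- Rb-), 12.8, 4.7 and 10.4 (p53- Myc+) and 6.43, 8.57 and 7.9 (p53- Rb- Myc+). It fell with the Myc+ label in both backgrounds (-2.23 ± 0.17, adjusted p = 5.79e-10, and -1.77 ± 0.17, adjusted p = 2.68e-08). With the Rb- label in p53- cells Wnt7a fell with a log2 change of -0.54 ± 0.17 (adjusted p = 0.0333). That call ended without p53- replicate 2 (adjusted p = 0.138), p53- replicate 3 (0.0655), p53- Rb- replicate 2 (0.0978) or p53- Rb- replicate 3 (0.11), after centring the arrays (0.0577) and with 1 added before the logarithm (0.146).

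In these bulk RNA samples, fewer cells of a type and less RNA per cell cannot be told apart. Epithelial marker transcripts moved with these ligands. Summed over 17 measured luminal genes of 19 listed, intensities ran from 16750.7 to 20810.4 in arrays without the Myc+ label, from 242.2 to 321.7 in p53- Myc+ and from 745.4 to 812.4 in p53- Rb- Myc+ arrays. The sum over 13 measured basal genes of 14 ran from 8434.9 to 12202.2 without the label and from 2135.2 to 2745.6 with it. In p53- Myc+ arrays 11 of the 17 luminal and 9 of the 13 basal genes had a group mean under 16. In p53- Rb- Myc+ arrays 9 and 6 did, so the remaining sums came from a part of each list. Of the 6 defining epithelial markers, 4 had a group mean under 16 in p53- Myc+ arrays, and for p53- Rb- Myc+ arrays 3 did. The part of these markers' cells in the fall of the ligands was not tested.

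Wnt10a, a ligand of the canonical branch best known in skin appendages, followed a different course. It measured 101, 157 and 90.1 (WT), 127, 142 and 95.5 (p53-), 116, 110 and 102 (p53- Rb-), 10.1, 4.47 and 18.2 (p53- Myc+) and 94.2, 104 and 98.3 (p53- Rb- Myc+). Only the 3 arrays labelled p53- Myc+ were low, and they did not overlap with any other group. Wnt10a fell with the Myc+ label in p53- cells with a log2 change of -2.37 ± 0.20 (adjusted p = 2.1e-09), and it rose with the Rb- label among arrays labelled Myc+ with a log2 change of 2.12 ± 0.20 (adjusted p = 1.3e-07). The same label gave -0.12 ± 0.20 (adjusted p = 0.711) without Myc+, and the difference of the changes was 2.25 ± 0.28 (adjusted p = 1.33e-05). Set against p53- Rb- arrays, those with all labels did not differ past the threshold in Wnt10a (-0.12 ± 0.20, adjusted p = 0.667). The summed fibroblast markers, over 19 measured genes of 20, were from 10614.2 to 11589.4 in p53- Myc+ and from 8184.4 to 9021.4 in p53- Rb- Myc+ arrays. The basal sum was also lower in the latter, with 2387.3 to 2745.6 against 2135.2 to 2315.0. Higher there were the luminal sum (242.2 to 321.7 against 745.4 to 812.4) and the leukocyte sum (310.3 to 339.8 against 386.5 to 415.4). The endothelial and adipocyte sums overlapped. The part of these lists in this difference was not tested.

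Wnt10a lies next to Wnt6 on chromosome 1, and 3 other pairs of members are direct neighbours among protein-coding genes in the mouse assembly GRCm38.p6: Wnt3a with Wnt9a, Wnt9b with Wnt3, and Wnt10b with Wnt1. Wnt6, a ligand of the early surface ectoderm, measured 225, 299 and 169 in p53- Myc+ against 220, 214 and 190 in p53- arrays, which overlapped (0.11 ± 0.20, adjusted p = 0.73). Its other groups gave 212, 290 and 258 (WT), 209, 172 and 158 (p53- Rb-) and 189, 211 and 125 (p53- Rb- Myc+). The low values of Wnt10a in the p53- Myc+ arrays were therefore not seen in its neighbour. In the other pairs, Wnt9a was the only gene to pass in any comparison. Wnt9a, whose product acts in joint and skeletal development, measured 119, 131 and 111 (WT), 81.6, 96.8 and 101 (p53-), 83.5, 88.6 and 97.9 (p53- Rb-), 66.5, 48.1 and 54.2 (p53- Myc+) and 69.6, 69.2 and 33.8 (p53- Rb- Myc+). Wnt9a fell with the Myc+ label in p53- cells (-0.60 ± 0.19, adjusted p = 0.0163) and in p53- Rb- cells (-0.57 ± 0.19, adjusted p = 0.0213). The former call ended without p53- replicate 3 (adjusted p = 0.0655) or p53- Myc+ replicate 2 (0.0673), with centred arrays (0.0914) and with quantile normalization (0.0717). The latter ended without p53- Rb- replicate 3 (0.0741) or p53- Rb- Myc+ replicate 3 (0.177).

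The 2 probe sets that name Wnt4 alone disagreed. The one with the higher mean (10509273) gave 63.8, 92.9 and 50.4 (WT), 126, 102 and 136 (p53-), 58.9, 97 and 59.1 (p53- Rb-), 89.5, 92 and 81.9 (p53- Myc+) and 137, 95.5 and 89.2 (p53- Rb- Myc+). On it Wnt4 was higher with p53 loss (0.71 ± 0.20, adjusted p = 0.0114) and lower with the Rb- label in p53- cells (-0.67 ± 0.20, adjusted p = 0.0244). The other probe set (10509267) gave 99.8, 77.6 and 70.2 (WT), 47.7, 48.8 and 45.4 (p53-), 40.5, 51 and 49.6 (p53- Rb-), 6.79, 0.017 and 11.3 (p53- Myc+) and 34.4, 17.2 and 39.9 (p53- Rb- Myc+). On that probe set Wnt4 fell with p53 loss (-0.63 ± 0.20, adjusted p = 0.0247), the opposite direction, and did not pass with the Rb- label (-0.01 ± 0.20, adjusted p = 0.979). It fell with the Myc+ label in p53- cells (-1.56 ± 0.20, adjusted p = 2.07e-06) and rose with the Rb- label among arrays labelled Myc+ (1.08 ± 0.20, adjusted p = 0.00161), where the first probe set gave -0.40 ± 0.20 (adjusted p = 0.148) and 0.23 ± 0.20 (adjusted p = 0.68). No direction is therefore given for Wnt4 with p53 loss. The calls on the first probe set also ended without single arrays: with p53 loss when WT replicate 3 (adjusted p = 0.0615) was left out, likewise p53- replicate 3 (0.0624), and with the Rb- label without p53- replicate 1 (0.0788), p53- replicate 3 (0.114), p53- Rb- replicate 1 (0.106) or p53- Rb- replicate 3 (0.12), and with 1 added (0.0572). With the mean of both probe sets neither call passed (adjusted p = 0.875 and 0.179).

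**Figure D2:**
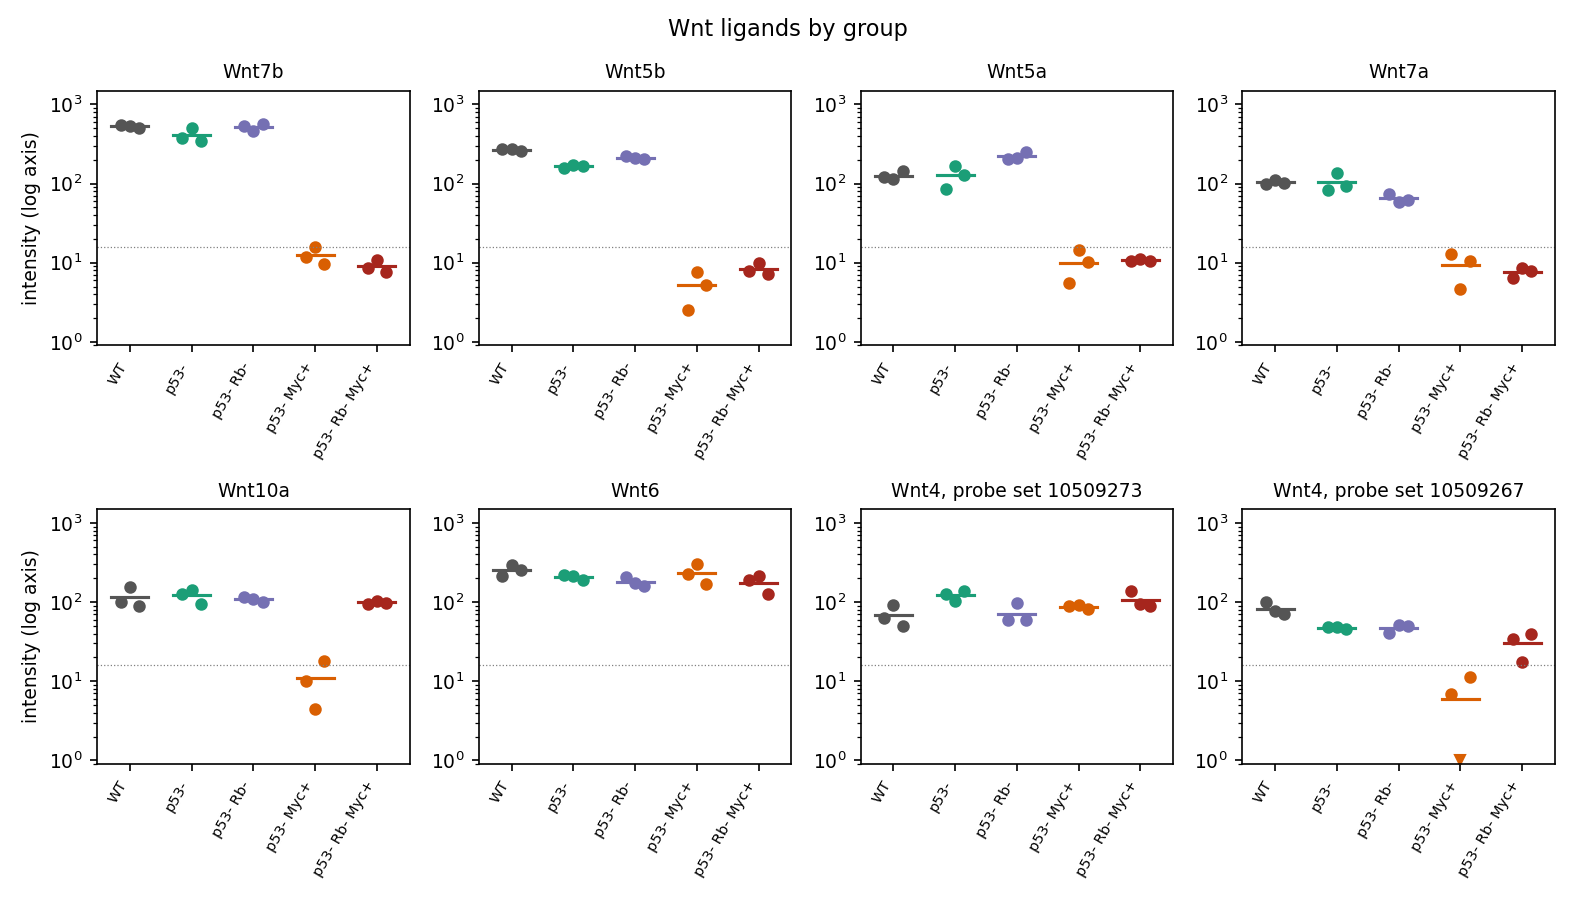
Intensity of 8 probe sets of Wnt ligands (vertical log axis) in the 5 groups; points are single arrays, bars group means, the dotted line marks the constant 16, and a triangle marks the Wnt4 value of 0.017, drawn at 1. Wnt7b, Wnt5b, Wnt5a and Wnt7a are low in both groups labelled Myc+ and Wnt10a in p53- Myc+ alone, while Wnt6 overlaps between these groups and the 2 Wnt4 probe sets differ in their order of groups.

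The remaining ligands gave no call. Wnt6, Wnt9b, Wnt10b and Wnt11 had highest group means from 182.9 to 608.9, and their log2 fold changes lay between -0.37 and 0.11 over the 5 comparisons (smallest adjusted p = 0.134). Wnt9b, which directs tubule formation in the kidney, measured 581, 669 and 526 (WT), 604, 592 and 631 (p53-), 631, 550 and 549 (p53- Rb-), 526, 631 and 433 (p53- Myc+) and 548, 619 and 436 (p53- Rb- Myc+). Wnt10b measured 176, 190 and 183 (WT), 149, 202 and 160 (p53-), 193, 145 and 167 (p53- Rb-), 179, 179 and 107 (p53- Myc+) and 178, 166 and 95.7 (p53- Rb- Myc+). These groups overlapped. Wnt11, a ligand of convergent cell movements, measured 230, 204 and 249 (WT), 191, 165 and 179 (p53-), 168, 160 and 145 (p53- Rb-), 172, 207 and 164 (p53- Myc+) and 179, 126 and 149 (p53- Rb- Myc+). Its WT arrays lay above the p53- arrays, but the difference did not pass. Wnt1, Wnt2, Wnt2b, Wnt3, Wnt3a, Wnt8a, Wnt8b and Wnt16 had highest group means from 26.72 to 59.74 and single values from 8.229 to 86.326, and none of these 8 genes passed in any of the 5 comparisons (smallest adjusted p = 0.064). The median probe set of an array is of the same size.

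Upstream sequence of the members with changes of at least 4-fold on this scale was read where the RefSeq promoter table (GRCm38.p6) held it, which was so for 3 of 8 such genes (Wnt5b, Wnt7a and Sfrp2) and for 29 of all 41 members. The 250 bases before the annotated start are shown 5′ to 3′ for Wnt7a and Wnt5b, which fell with the Myc+ label, and for Sfrp2, which rose. Capitals mark matches to the letters searched on both strands: AACAAAG or ATCAAAG or TACAAAG or TTCAAAG for TCF/LEF, CACGTG for the E-box that MYC with MAX is known to bind, and TTTCCCGC or TTTCGCGC or TTTGCCGC or TTTGGCGC for E2F. No motif overlaps another in these windows.
Wnt7a, chr6:91411354-91411603, minus strand: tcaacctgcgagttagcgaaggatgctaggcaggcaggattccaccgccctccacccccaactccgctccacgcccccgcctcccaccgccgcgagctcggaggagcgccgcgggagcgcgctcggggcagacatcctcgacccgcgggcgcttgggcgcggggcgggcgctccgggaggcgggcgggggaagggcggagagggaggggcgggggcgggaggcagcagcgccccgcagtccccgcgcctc
Wnt5b, chr6:119449387-119449636, minus strand: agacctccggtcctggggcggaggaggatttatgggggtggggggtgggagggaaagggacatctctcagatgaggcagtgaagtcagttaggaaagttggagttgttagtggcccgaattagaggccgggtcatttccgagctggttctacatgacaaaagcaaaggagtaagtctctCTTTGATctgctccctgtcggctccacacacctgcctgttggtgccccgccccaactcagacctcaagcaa
Wnt5b, chr6:119544348-119544597, minus strand: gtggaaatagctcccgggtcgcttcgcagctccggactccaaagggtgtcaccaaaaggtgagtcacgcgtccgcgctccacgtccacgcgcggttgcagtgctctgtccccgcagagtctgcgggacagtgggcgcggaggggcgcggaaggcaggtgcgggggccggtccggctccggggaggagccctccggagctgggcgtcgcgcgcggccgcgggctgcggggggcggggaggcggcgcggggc
Sfrp2, chr3:83766071-83766320, plus strand: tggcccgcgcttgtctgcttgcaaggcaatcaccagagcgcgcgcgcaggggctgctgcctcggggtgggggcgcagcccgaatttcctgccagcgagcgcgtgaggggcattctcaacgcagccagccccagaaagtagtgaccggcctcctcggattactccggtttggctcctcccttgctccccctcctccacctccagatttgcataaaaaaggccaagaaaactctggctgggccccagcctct
The only match in these 4 windows is a TCF/LEF match (CTTTGAT, the reverse complement of ATCAAAG) that starts 71 bases before the more downstream Wnt5b start. The Wnt7a window holds 34 CG pairs and 77.6% G and C, the Wnt5b windows 7 and 55.6%, and 35 and 75.2%, and the Sfrp2 window 16 and 63.6%. Another Wnt5b window, not printed, has no match. Over all members with an entry, TCF/LEF letters occurred in 5 of 35 windows, E-box letters in 4 and E2F letters in 2, against 14.8%, 6.02% and 1.86% of 32851 windows of the whole table. The matches outside Wnt5b were TCF/LEF letters in Dkk1, Fzd7, Lef1 and Wnt11, E-box letters in Fzd9, Lef1, Wif1 and Wnt9a, and E2F letters in Sfrp5 and Wnt11. The Axin2 window has none of these letters. A match is a run of letters and not a shown binding site.

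Among the receptors, Fzd6, which acts in planar polarity and hair orientation, measured 231, 266 and 214 (WT), 158, 176 and 136 (p53-), 142, 154 and 107 (p53- Rb-), 14.6, 9.84 and 15.1 (p53- Myc+) and 7.24, 4.26 and 21.7 (p53- Rb- Myc+). Like the ligands above, it was low in all 6 arrays labelled Myc+. Fzd6 fell with that label with a log2 change of -2.56 ± 0.20 (adjusted p = 5.3e-10) in p53- and with a log2 change of -2.51 ± 0.20 (adjusted p = 7.87e-10) in p53- Rb- cells. It also fell with p53 loss (-0.55 ± 0.20, adjusted p = 0.0422), but that call ended without WT replicate 1 (adjusted p = 0.076), WT replicate 2 (0.131), p53- Rb- replicate 1 (0.0517), p53- replicate 1 (0.0882) or p53- replicate 3 (0.168), with a replicate block (0.0512) and with 1 added before the logarithm (0.281).

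Fzd5, a receptor with a known role in gut and eye, measured 168, 131 and 167 (WT), 174, 223 and 147 (p53-), 156, 123 and 121 (p53- Rb-), 61.7, 47.3 and 56.2 (p53- Myc+) and 54.6, 45.4 and 27.4 (p53- Rb- Myc+). It fell with the Myc+ label with a log2 change of -1.46 ± 0.19 (adjusted p = 1.91e-06) in p53- and with a log2 change of -1.37 ± 0.19 (adjusted p = 4.75e-06) in p53- Rb- cells. All 6 of its arrays labelled Myc+ lay below all others and above the constant of 16.

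Fzd1, a receptor of the canonical branch, moved the other way. It measured 236, 167 and 202 (WT), 83, 105 and 92.9 (p53-), 178, 185 and 220 (p53- Rb-), 213, 210 and 228 (p53- Myc+) and 266, 228 and 245 (p53- Rb- Myc+). The 3 p53- arrays were the low ones, below every array of the other 4 groups. Fzd1 fell with p53 loss with a log2 change of -0.98 ± 0.16 (adjusted p = 0.000116), rose with the Rb- label in p53- cells with a log2 change of 0.94 ± 0.16 (adjusted p = 0.000274) and rose with the Myc+ label in p53- cells with a log2 change of 1.09 ± 0.16 (adjusted p = 8.47e-06). These 3 comparisons share the p53- arrays. Among arrays labelled Myc+ the Rb- label gave 0.17 ± 0.16 (adjusted p = 0.705).

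Fzd2, a receptor for Wnt5a among others, measured 372, 288 and 294 (WT), 201, 311 and 188 (p53-), 366, 374 and 541 (p53- Rb-), 670, 728 and 666 (p53- Myc+) and 480, 516 and 452 (p53- Rb- Myc+). The p53- Myc+ arrays were the highest. In p53- cells Fzd2 rose with the Rb- label (0.84 ± 0.19, adjusted p = 0.00338) and, against the same p53- arrays, under Myc+ (1.53 ± 0.19, adjusted p = 8.41e-07). The Rb- label among arrays labelled Myc+ left groups that did not overlap, with a change of -0.50 ± 0.19 (adjusted p = 0.173).

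Fzd7 and Fzd10 did not pass in any of the 5 comparisons. Fzd7, the receptor often found in mammary stem cell fractions, measured 111, 67.4 and 146 (WT), 131, 107 and 125 (p53-), 183, 192 and 124 (p53- Rb-), 90.8, 99.6 and 135 (p53- Myc+) and 141, 173 and 160 (p53- Rb- Myc+), with overlap between most groups. Fzd10 measured 219, 231 and 166 (WT), 175, 122 and 114 (p53-), 155, 134 and 153 (p53- Rb-), 138, 141 and 206 (p53- Myc+) and 123, 132 and 255 (p53- Rb- Myc+). Fzd3, Fzd4, Fzd8 and Fzd9 had highest group means from 51.05 to 93.48. Fzd4, which binds the Wnt-unrelated ligand norrin as well, fell with the Myc+ label (-0.73 ± 0.24, adjusted p = 0.0204, in p53- and -0.84 ± 0.24, adjusted p = 0.00732, in p53- Rb- cells), and so did Fzd8 (-0.77 ± 0.23, adjusted p = 0.00974, and -0.76 ± 0.23, adjusted p = 0.0102). Fzd9 rose with it (0.69 ± 0.19, adjusted p = 0.00688, and 0.50 ± 0.19, adjusted p = 0.0483). In p53- cells the Fzd4 call ended without p53- replicate 2 (adjusted p = 0.188), p53- Myc+ replicate 1 (0.0574) or p53- Myc+ replicate 2 (0.0529), with centred arrays (0.0933), with quantile normalization (0.175) and with 64 added (0.0613), and the Fzd8 call without p53- replicate 2 (0.0721) or p53- Myc+ replicate 3 (0.0972) and with array weights (0.0575). In p53- Rb- cells the Fzd4 call ended without p53- Rb- replicate 3 (0.0592), and the Fzd9 call when any of 10 arrays was left out singly (adjusted p from 0.0512 to 0.152), with 1 added (0.0785) and with a variance prior with trend (0.0572).

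Of the secreted inhibitors, Sfrp2 changed in every comparison. Sfrp2 is a stromal product in many tissues that can dampen or enhance Wnt signals. It measured 109, 75.8 and 106 (WT), 31.2, 29.8 and 23 (p53-), 63.9, 49 and 112 (p53- Rb-), 829, 856 and 943 (p53- Myc+) and 407, 377 and 458 (p53- Rb- Myc+). The order was p53- lowest, then p53- Rb- and WT, which overlapped, then p53- Rb- Myc+, then p53- Myc+. Sfrp2 fell with p53 loss (-1.35 ± 0.20, adjusted p = 5.24e-05) and rose with the Rb- label in p53- cells (0.99 ± 0.20, adjusted p = 0.00143). With the Myc+ label it rose with a log2 change of 4.34 ± 0.20 (adjusted p = 6.43e-14) in p53- and with a log2 change of 2.30 ± 0.20 (adjusted p = 4.25e-09) in p53- Rb- cells, and with the Rb- label among arrays labelled Myc+ it fell with a log2 change of -1.05 ± 0.20 (adjusted p = 0.00174). Sums of other cell type markers also differed between groups. The summed fibroblast markers were 6991.5 to 7737.3 in WT, 5583.4 to 5995 in p53-, 10568.7 to 14261.9 in p53- Rb-, 10614.2 to 11589.4 in p53- Myc+, against 8184.4 to 9021.4 in p53- Rb- Myc+ arrays. The summed adipocyte markers, 8 measured of 8, were 787.8 to 973.5 in WT, 553.6 to 700.0 in p53-, 721.7 to 819.3 in p53- Rb-, 1007.5 to 1153.8 in p53- Myc+, against 1019.3 to 1220.8 in p53- Rb- Myc+ arrays. The fibroblast sum was lower in p53- Rb- Myc+ than in p53- Rb- arrays, and the adipocyte sums of both groups labelled Myc+ overlapped. The part of either list in the changes of Sfrp2 was not tested.

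Sfrp1, a ligand-binding inhibitor of the same family, measured 167, 137 and 196 (WT), 139, 161 and 133 (p53-), 208, 252 and 290 (p53- Rb-), 194, 232 and 220 (p53- Myc+) and 42.2, 37.1 and 68.7 (p53- Rb- Myc+). The 3 arrays with all changes were the low ones, below every other array. The Rb- label gave opposite changes: Sfrp1 rose with a log2 change of 0.73 ± 0.19 (adjusted p = 0.00855) without Myc+ and fell with a log2 change of -1.85 ± 0.19 (adjusted p = 3.4e-07) with it. The former call ended without p53- Rb- replicate 3 (0.62, adjusted p = 0.0588). With the Myc+ label Sfrp1 rose in p53- cells (0.54 ± 0.19, adjusted p = 0.0303) and fell in p53- Rb- cells (-2.04 ± 0.19, adjusted p = 7.85e-09). The call of that rise ended without p53- replicate 1 (adjusted p = 0.0829), p53- replicate 3 (0.103), p53- Myc+ replicate 2 (0.0889) or p53- Myc+ replicate 3 (0.0725), and with 1 added before the logarithm (0.0681).

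The Dkk genes were less uniform. Dkk1, which blocks the co-receptors, measured 258, 364 and 290 (WT), 284, 326 and 265 (p53-), 261, 274 and 282 (p53- Rb-), 294, 294 and 209 (p53- Myc+) and 279, 285 and 189 (p53- Rb- Myc+). Its groups overlapped, and its changes lay between -0.14 and -0.05 (smallest adjusted p = 0.613). Dkk3, a divergent member whose action on the pathway is less clear, measured 69, 68 and 90.8 (WT), 59.7, 89.5 and 91.8 (p53-), 119, 118 and 120 (p53- Rb-), 47.5, 6.06 and 2.76 (p53- Myc+) and 47.6, 31.1 and 23.9 (p53- Rb- Myc+). All 6 arrays labelled Myc+ lay below all others, with a wide spread among the p53- Myc+ arrays, and Dkk3 fell with that label with a log2 change of -1.68 ± 0.30 (adjusted p = 0.000101) and with a log2 change of -1.46 ± 0.30 (adjusted p = 0.000468). Dkk2, a co-receptor ligand of the same family, measured 33.9, 61.4 and 13.1 (WT), 41.7, 56.1 and 59.2 (p53-), 25.3, 48.1 and 19.8 (p53- Rb-), 16.2, 18.9 and 12.7 (p53- Myc+) and 37.5, 23.8 and 32.1 (p53- Rb- Myc+). Dkk2 fell with the Myc+ label in p53- cells (-1.09 ± 0.26, adjusted p = 0.00202).

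Dkk4, Sfrp4, Sfrp5 and Wif1 had highest group means from 24.71 to 35.08. Only Sfrp5 passed: from 10.2, 4.86 and 8.55 in WT to 32.3, 20.3 and 21.5 with p53 loss it rose (0.76 ± 0.18, adjusted p = 0.00282), and it was lower with the Myc+ label in p53- cells (-0.65 ± 0.18, adjusted p = 0.00603). The latter call ended without p53- Myc+ replicate 3 (adjusted p = 0.0586) and after quantile normalization (0.0979). Over the alternative settings the rise of Sfrp5 ran from 0.301 to 1.555 and its fall from -1.34 to -0.259. All its WT values lay under the constant added before the logarithm. The low end of the p53- arrays, as given above, was 14.88 to 18.55, against 8.83 to 13.99 in the other arrays. Both changes of Sfrp5 had the direction of that difference, whose part in them was not tested.

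Axin2, the feedback inhibitor, had its highest group mean at 38.2. It measured 40.3, 16.8 and 22 (WT), 36.1, 43.2 and 35.2 (p53-), 33.5, 42.7 and 27.9 (p53- Rb-), 9.8, 15.5 and 16.7 (p53- Myc+) and 21.8, 16.7 and 20.2 (p53- Rb- Myc+). The WT arrays overlapped with groups on both sides. Axin2 fell with the Myc+ label in p53- cells (-0.86 ± 0.19, adjusted p = 0.000885) and in p53- Rb- cells (-0.50 ± 0.19, adjusted p = 0.0386). The latter call ended without p53- Rb- replicate 1 (adjusted p = 0.0791), p53- Rb- replicate 2 (0.16), p53- Rb- Myc+ replicate 1 (0.0584), p53- Rb- Myc+ replicate 2 (0.129) or p53- Rb- Myc+ replicate 3 (0.0664), with 64 added (0.0651), with centred arrays (0.0635) and with a variance prior with trend (0.0501). Lef1, a nuclear partner of beta-catenin, and Nkd1 had highest group means of 63.41 and 33.37 and did not pass in any of the 5 comparisons (smallest adjusted p = 0.12). Lef1 spread widely within groups, for example 17.3, 68.2 and 38.5 in p53- Rb- Myc+ arrays.

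**Figure D3:**
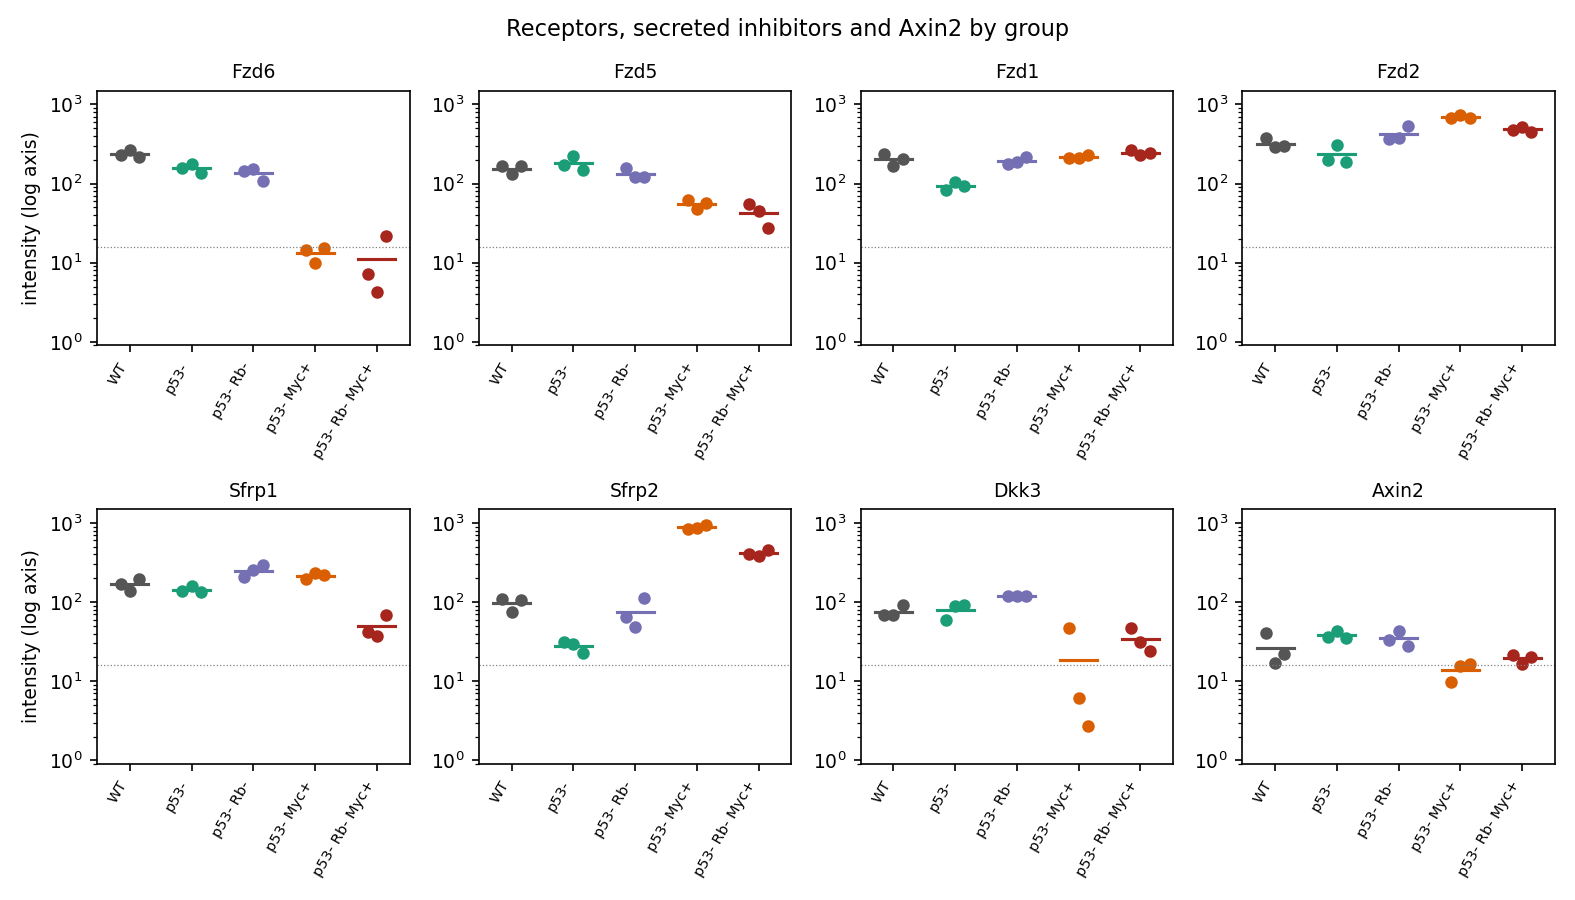
Intensity of 8 receptors, secreted inhibitors and Axin2 (vertical log axis) in the 5 groups; points are single arrays, bars group means and the dotted line marks the constant 16. Fzd6 and Dkk3 are low with the Myc+ label, Fzd1 is low in p53- arrays, Sfrp1 is low in p53- Rb- Myc+ arrays and Sfrp2 is highest in p53- Myc+ arrays.

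Counted by comparison, p53 loss called 6 of 41 members, where Wnt4 (with the reservation on its probe sets) and Sfrp5 rose and Wnt5b, Fzd1, Fzd6 and Sfrp2 fell. Over all genes 29% were called in that comparison (19.3% higher and 9.71% lower), so the members' share was not above the background. Arrays of the groups did not overlap for 10 members, against 40.2% of genes. The median member changed by -0.03 and the median gene by 0.12. Of the 6 calls 2 were rises, and 2 of 9 after centring the arrays. Without the 6 arrays labelled Myc+ in the fit, 7 members were called. Summed leukocyte markers (10 measured of 11) ran from 2185.2 to 2539.4 in WT and from 648 to 783.5 in p53- arrays, and summed endothelial markers (10 of 10) from 786.4 to 1089.8 and from 557.2 to 689.9. The basal sum was 11340.7 to 12184.6 in WT and 8434.9 to 10353.1 in p53- arrays, and the fibroblast and adipocyte sums given for Sfrp2 were also lower in p53- arrays, without overlap. The luminal sum was 19960.1 to 20810.4 in WT and 16750.7 to 19857.1 in p53- arrays, so the sum of every cell type list was lower in p53- arrays. The p53- arrays had fewer genes under 16 than all others, as given above. Their part in these changes was not tested.

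The Rb- label in p53- cells called 7 members, as Wnt5a, Fzd1, Fzd2, Sfrp1 and Sfrp2 rose and Wnt7a and, on 1 of its 2 probe sets, Wnt4 fell (the other gave -0.01, adjusted p = 0.979). The background was 19.8% of genes (9.36% higher and 10.4% lower), arrays did not overlap for 12 members against 40% of genes, and the median change was -0.09 for members and -0.08 for all genes. The count was 4 without p53- Rb- replicate 3, 4 with 1 added before the logarithm, 18 with array weights and again 7 without the 6 arrays labelled Myc+, and rises were 5 of 7 calls and 5 of 6 after centring. Beside these changes the fibroblast sum was 5583.4 to 5995.0 in p53- arrays and 10568.7 to 14261.9 with the Rb- label. The basal sum was 8434.9 to 10353.1 and 11877.6 to 12202.2. Neither overlapped. The leukocyte (648.0 to 783.5 and 814.1 to 900.7), endothelial (557.2 to 689.9 and 814.7 to 835.9) and adipocyte sums (553.6 to 700.0 and 721.7 to 819.3) were also higher without overlap. The luminal sums (16750.7 to 19857.1 and 18244.6 to 18961.3) overlapped. The part of these lists was not tested. This comparison shares the p53- arrays with that of p53 loss.

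The Myc+ label called 19 members in p53- cells, 5 higher and 14 lower, against a background of 33.3% of genes (13.1% higher and 20.2% lower). Wnt4 is not among them on the probe set counted, but its other probe set fell (-1.56 ± 0.20, adjusted p = 2.07e-06). Arrays did not overlap for 20 members, against 42.6% of genes. By role, 6 of 19 ligands fell and 0 rose, 4 of 10 receptors fell and 3 rose, and 3 of 9 secreted inhibitors fell and 2 rose. In p53- Rb- cells it called 14 members, 2 higher and 12 lower, against 36.3% of genes (17.6% higher and 18.7% lower), and arrays did not overlap for 15 members against 51.2% of genes, with rises in 4 of 16 calls after quantile normalization. There 5 of 19 ligands fell. The median member changed by -0.22 and -0.05 in these comparisons and the median gene by -0.09 and 0.12; centring moved the median gene of the former to 0.11. Of the members, 13 were called the same way in both, against 19.6% of all genes, and Sfrp1 was called opposite ways, against 1.35%. In no comparison were these counts tested against other genes.

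The Rb- label among arrays labelled Myc+ called 3 members, Wnt10a, Sfrp1 and Sfrp2, against 4.69% of genes (3.29% higher and 1.4% lower). Wnt4 was counted on its first probe set and did not pass there, while its other probe set rose (1.08 ± 0.20, adjusted p = 0.00161). The count stayed at 3 or 4 in all alternatives run, none of which counted Wnt4 on its other probe set alone. The arrays of both groups did not overlap for 10 members, against 20.5% of genes.

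Whether the change with the Rb- label differed between arrays with and without the Myc+ label was tested directly. The difference was called for 7 members (background 13.6% of genes, 8.77% higher and 4.85% lower). For Sfrp1 the change was lower with Myc+, with a log2 difference of -2.58 ± 0.26 (adjusted p = 7.24e-07), for Sfrp2 with a difference of -2.05 ± 0.29 (adjusted p = 4.47e-05) and for Fzd2 with a difference of -1.34 ± 0.27 (adjusted p = 0.00191), and for Wnt10a it was higher by the 2.25 given above. The other calls, for Fzd1, Wnt4 and Dkk2, each ended when any of at least 5 arrays was left out singly. Those for Wnt4 and Dkk2 also ended with 1 added, with centred arrays and with quantile normalization. The count was 4 without p53- replicate 3, p53- Rb- replicate 3, p53- Myc+ replicate 3 or p53- Rb- Myc+ replicate 2. Rises were 3 of 7 calls, 1 of 6 after centring and 1 of 5 after quantile normalization.

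**Figure D4:**
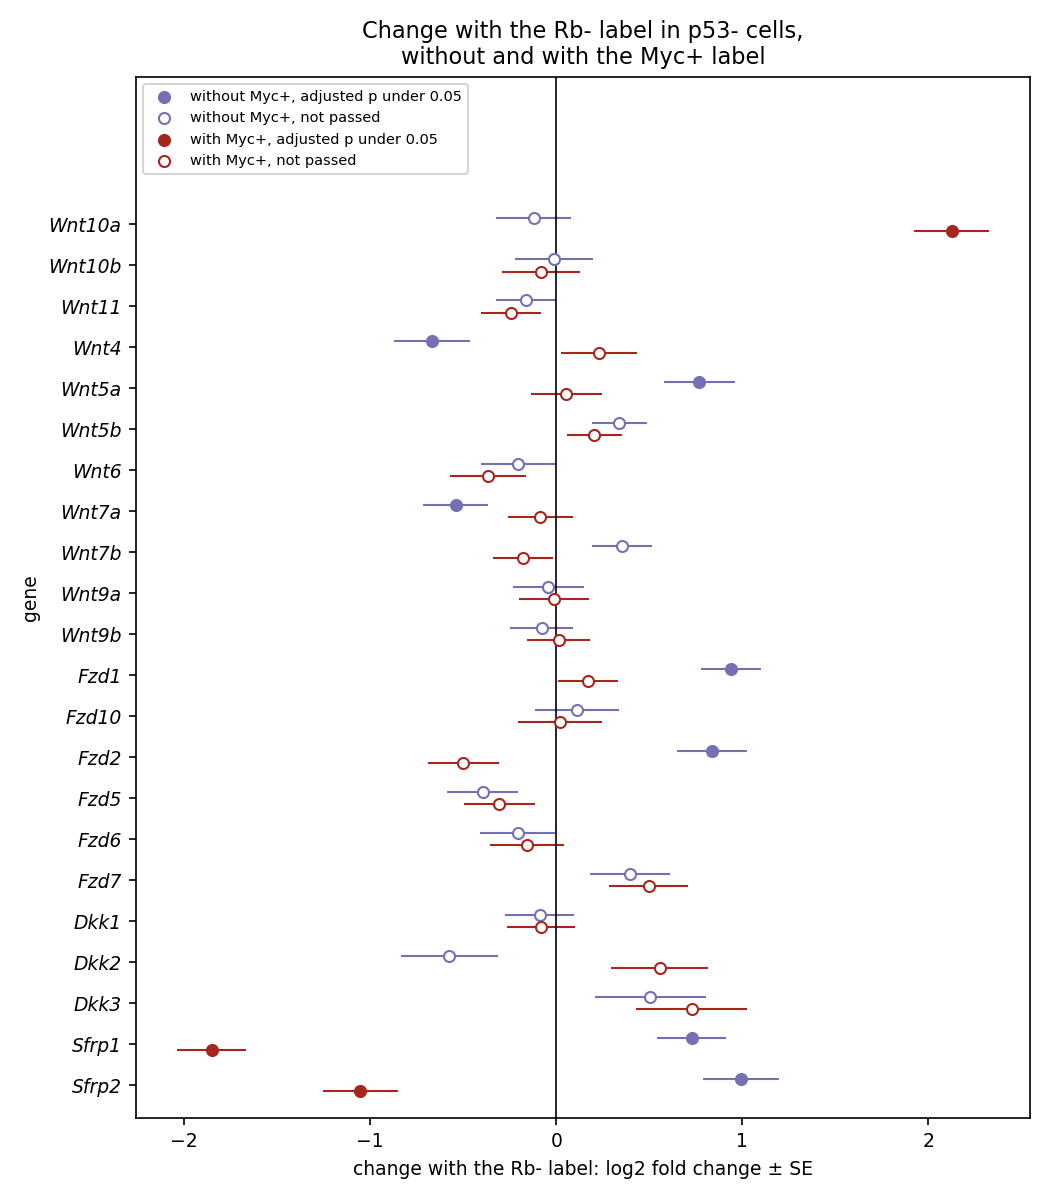
Change with the Rb- label (log2 fold change ± SE, horizontal axis) for the 22 members described by array, in p53- cells without Myc+ (purple) and with Myc+ (red); filled points passed at adjusted p under 0.05. Sfrp1 and Sfrp2 lie right of 0 without and left of 0 with Myc+, and Wnt10a lies at 2.12 with and near 0 without it.

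Other genes of the pathway, 70 measured genes from Wnt secretion to nuclear cofactors and known targets, were counted in the same fit. With p53 loss 10 rose and 9 fell, 14.3% and 12.9% of the list against 19.3% and 9.71% of all genes. Kremen1, a Dkk receptor, fell with a log2 change of -1.49 ± 0.23 (adjusted p = 8.1e-05), while the co-receptor gene Ptk7 (-1.11 ± 0.19, adjusted p = 0.000192) and the polarity cadherin gene Celsr2 (adjusted p = 0.000101, from group means of 144.7 to 58.69) fell too. Apc, a scaffold of beta-catenin destruction, rose with a log2 change of 1.18 ± 0.23 (adjusted p = 0.000559). With the Rb- label in p53- cells 12 rose and 4 fell, 17.1% and 5.71% against 9.36% and 10.4% of all genes. The matricellular targets Ccn5 (1.49 ± 0.17, adjusted p = 5.18e-06) and Ccn4 (1.07 ± 0.16, adjusted p = 5.83e-05), Celsr2 (1.17 ± 0.18, adjusted p = 8.99e-05) and Nkd2, a relative of Nkd1 (1.05 ± 0.16, adjusted p = 0.000104) were among the risers.

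With the Myc+ label 11 of the 70 rose and 21 fell in p53- cells, and 7 rose and 26 fell in p53- Rb- cells. These are 15.7% and 30% of the list against 13.1% and 20.2% of all genes, and 10% and 37.1% against 17.6% and 18.7%. The adhesion receptor gene Cd44, a target in gut, fell in both (-5.67 ± 0.17, adjusted p = 3.36e-17, and -4.54 ± 0.17, adjusted p = 1.76e-15), from group means of 2045 and 1413 to 24.66 and 45.3. Sox9, a transcription factor gene of progenitor cells, fell in both (-3.09 ± 0.15, adjusted p = 2.34e-13, and -3.48 ± 0.15, adjusted p = 3.38e-14). Celsr2 fell as well (-1.89 and -2.75), as did the formin gene Daam1 in p53- cells (-2.01) and Nkd2 in p53- Rb- cells (-2.51). Celsr2 had group means of 4.203 and 9.183 with the label, under the constant 16, and Nkd2 had 22.71 in p53- Rb- Myc+ arrays. Sizes for such low values hold for this constant alone, and no other was run for these genes. With the Rb- label among arrays labelled Myc+ 4 rose and 3 fell (5.71% and 4.29% against 3.29% and 1.4% of all genes), and the corepressor gene Tle4 rose with a log2 change of 1.06 ± 0.16 (adjusted p = 0.000104). The change with the Rb- label was higher with than without Myc+ for 5 and lower for 9 (7.14% and 12.9% against 8.77% and 4.85% of all genes), among them Nkd2 (-1.86 ± 0.23, adjusted p = 8.2e-06), Tle4 (1.62 ± 0.23, adjusted p = 4.45e-05), Ccn4 (-1.41 ± 0.22, adjusted p = 0.000171) and Ccn5 (-1.35 ± 0.24, adjusted p = 0.000678). The epithelial and other cell type markers given above moved beside the falls with the Myc+ label, and their part was not tested.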

How the data were processed

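The intensities were deposited by the authors per probe set on a linear scale, and the submitters' processing notes name Affymetrix Expression Console 1.1. RNA had gone through WT-Ovation Pico amplification, per the labels' protocols. How probes were summarised and arrays scaled is unstated. Of 35556 probe sets, 21789 named 1 gene in the platform annotation and gave 19938 genes. All 15 arrays entered 1 fit of group means on log2(intensity + 16) by limma 3.58.1 under R 4.3.3, whose moderated test had 10 residual degrees of freedom plus 11.78 from the prior, with Benjamini-Hochberg adjustment over all genes and 2-sided tests. Tested on simulated data for p53- against WT over 19938 genes, it recovered 84% of 2-fold rises, and 5.48% of its calls were false. Far fewer genes were changed there than were called here, and the noise was independent, so these rates need not hold for these data. Members and lists were chosen with earlier results of these data known. Members are described by array if called with a 2-fold change or if a group mean reached 100. Axin2, Lef1, Sfrp5, Fzd4, Fzd8 and Fzd9 fall outside this rule and were given singly with their values known. Up to 4 other pathway genes per comparison are named by smallest p among those called with a 2-fold change. Same-numbered arrays of p53- Rb- Myc+ and p53- Myc+ correlated in their deviations (r = 0.102, 0.192 and 0.379), which is known from the values and not the labels. No test of the main fit was paired, and a replicate block entered only as an alternative. The number of arrays limits the precision. Alternatives covered the constant added, scaling, a filter, probe sets, the arrays fitted, weights, the variance prior, the block and each array left out. 3 were added after seeing the data: the block in those groups alone, the fit without Myc+ arrays, and the other Wnt4 probe set.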

Additional observations from a re-analysis of the deposited data

Results flagged for a closer look

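For 7 members a limma test of the difference showed that the change with the Rb- label was not the same with and without the Myc+ label, given here as the log2 change with minus the change without Myc+. The difference was -2.58 ± 0.26 for Sfrp1 (adjusted p = 7.24e-07), -2.05 ± 0.29 for Sfrp2 (adjusted p = 4.47e-05), -1.34 ± 0.27 for Fzd2 (adjusted p = 0.00191) and 2.25 ± 0.28 for Wnt10a (adjusted p = 1.33e-05), and these 4 calls held in every alternative that could be run. It was -0.77 ± 0.23 for Fzd1 (adjusted p = 0.0258), a call that ended without p53- replicate 1, p53- replicate 3, p53- Rb- replicate 3, p53- Myc+ replicate 3 or p53- Rb- Myc+ replicate 2 (adjusted p from 0.0556 to 0.0726). It was 0.90 ± 0.29 for Wnt4 (adjusted p = 0.0412), which ended when any of 9 arrays was left out singly (adjusted p from 0.0516 to 0.127), and 1.09 ± 0.29 (adjusted p = 0.0146) on the other Wnt4 probe set. For Dkk2 it was 1.13 ± 0.37 (adjusted p = 0.044), which ended when any of 10 arrays was left out singly (adjusted p from 0.0504 to 0.13). The Dkk2 call also ended with 1 added (0.0977), with 64 added (0.0808), with centred arrays (0.0631) and with quantile normalization (0.0939). That of Wnt4 on the first probe set also ended with 1 added (0.0876), with centred arrays (0.0716) and with quantile normalization (0.0503).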

How the results depend on the processing

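Of 56 calls of a member in a comparison, 37 held in every alternative run and 19 ended in at least 1. The only reversal was Wnt4 with p53 loss, -0.63 on its other probe set. The count of members called with the Rb- label in p53- cells moved from 7 to 4 with 1 added before log2 and to 18 with array weights; the cause was not tested. Leaving out 1 array gave 4 to 9 calls with p53 loss, 4 to 10 with the Rb- label in p53- cells, 16 to 19 and 11 to 15 with the Myc+ label in p53- and p53- Rb- cells, 3 to 4 with the Rb- label among Myc+ arrays and 4 to 8 for the difference. With a replicate block the counts were 5, 8, 19, 3, 14 and 7 for the comparisons in the order of the design, and apart from Fzd6 with p53 loss it ended no call. With the block in the p53- Rb- Myc+ and p53- Myc+ arrays alone the count was 3. With 1 added before log2, 9 calls ended, with centring 6 and with quantile normalization 5. Low signal limits what can be seen for 11 members whose group means all lay under 50.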
